A study of Homo sapiens with 9 samples.

Results

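MC26 and M1B26 are transformed lines made from MCF10A, a nonmalignant human mammary epithelial line in which CDKN2A is deleted and MYC is amplified. RNA was sequenced from 3 replicates of each line, and these 6 libraries, taken by their titles, are compared here out of 9 in the series. MC26 came from unsorted MCF10A cells kept for a long time in BMP2 and IL6. M1B26 came from the BMPR1B-positive fraction of MCF10A (BMPR1B is a receptor for BMPs), which transformed within a few weeks of the same treatment, and 3 of their soft-agar clones were picked and expanded to make the line. Both lines were grown with BMP2 and IL6 (the sources differ on the doses), so the comparison asks what else separates the line from sorted cells from the line from unsorted cells. The other 3 libraries are CT, MCF10A cells that were neither supplemented nor transformed, and their levels are given as a reference. Clonal origin, sorting and length of exposure differ together between the lines and cannot be told apart here, nor can a preparation batch, which the labels do not give. The labels do not say whether the 3 replicates of M1B26 were the 3 clones. MC26 is a single derived line in either case. The p-values therefore measure the spread between replicates and not that between independent derivations of a line.

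BMPs bind pairs of type I and type II receptors (BMPR1B is of type I), which phosphorylate SMAD1, SMAD5 and SMAD9. These enter the nucleus with SMAD4 and switch on ID genes, together with inhibitors of the same pathway such as SMAD6, SMAD7 and BAMBI. IL6 binds IL6R and the shared receptor gp130 (IL6ST), which activates JAK kinases and STAT3, and STAT3 induces its own inhibitor SOCS3. In the mammary gland both pathways are known for their effect on stem and progenitor cells.

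Total counts were 41267886, 38585395 and 42869494 in MC26 replicates 1 to 3 and 45715934, 43642934 and 55048760 in M1B26. CPM are counts scaled to the library's counts in tested genes times its TMM scaling factor. On this scale 1 count stood for 0.0185 to 0.0261 CPM in these libraries. Of 60199 gene symbols, 15717 passed the filter on low counts and were tested. Log2 CPM correlated over 12867 genes at 0.985 to 0.994 among MC26 libraries, at 0.991 to 0.993 among M1B26 libraries and at 0.953 to 0.969 between the lines. MC26 libraries were the most spread, with 139 of 10590 genes at 5 CPM or more lying at least 2-fold apart between replicates 1 and 3, against 11 to 39 in the other pairs of a line. All 10 epithelial markers were at 1 CPM or more in some library. Their summed level ran from 9884 to 12419 CPM in MC26 and from 9137 to 9623 CPM in M1B26. CDKN2A and CDKN2B were at 0 counts in all 9 libraries.

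Between the lines 6215 genes, 39.5% of those tested, were called changed (edgeR quasi-likelihood test, Benjamini-Hochberg adjusted p under 0.05). Of these 3328 (21.2% of genes tested) were higher in M1B26 and 2887 (18.4%) were lower, and the median log2 fold change of all genes was 0.00. Changes of at least 2-fold were seen for 1284 genes (8.17%), with 931 higher in M1B26 (5.92%) and 353 lower (2.25%). The CPM values of the lines did not overlap for 8404 genes (53.5%), with M1B26 above MC26 for 4377 (27.8%) and below it for 4027 (25.6%). All fold changes below are log2 values of M1B26 over MC26 and are differences in RNA. Because bulk RNA was measured, fewer cells expressing a gene and less RNA of it per cell cannot be told apart.

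A cluster of natural killer cell receptor genes was counted in M1B26 and hardly at all in MC26. The killer-cell immunoglobulin-like receptors (KIRs) are surface receptors with which natural killer cells read MHC class I, and their genes lie side by side on the plus strand of chromosome 19 (chr19:54724442-54867207, GRCh38). Summed over the 9 KIR genes of the table, MC26 had 4, 3 and 6 counts and M1B26 had 2649, 3113 and 2834. This is 0.0995, 0.0784 and 0.141 CPM against 59.7, 73.7 and 52.3 CPM. The M1B26 libraries stood far above every MC26 library, and CT libraries had 3, 0 and 10 counts. The ratio of M1B26 to MC26 was 569, with a 95% exact interval of 332 to 1069 that covers counting error only. Of the 9 genes, 8 were counted in every M1B26 library. KIR2DP1, a pseudogene, is among these 8, with 0 counts in MC26 and 352 in M1B26. KIR3DP1, also a pseudogene, was at 0 in all. KIR2DS4 held the most counts (1989 over the 3 M1B26 libraries), followed by KIR2DL3 (1722), KIR3DL1 (1669) and KIR2DL4 (1449). KIR genes share near-identical stretches and the treatment of reads with several alignments is not stated, so the split among them is uncertain and the sum is the firmer value.

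The genes beside the cluster, named for their position, were counted as follows. LILRP2, before it, had 0 counts in MC26 and 1 in M1B26. On the other side FCAR, the Fc receptor for IgA, was at 0.124, 0.235 and 0.212 CPM in MC26 and 3.2, 3.48 and 3.03 CPM in M1B26 (log2 fold change 4.07, SE 0.27, adjusted p 3.11e-06 by edgeR), and NCR1 beyond it had 0 and 1 counts. Of 10 leukocyte markers 3 were at 0 counts in the 6 libraries, and 3 (CD14, CSF1R and LAPTM5, given below) reached 1 CPM in some library. CD3E and MS4A1 were at 0 counts in all libraries, and PTPRC, the pan-leukocyte marker CD45, had 1 count in the 6 libraries together. The summed level of the 10 markers was 24.0 to 27.2 CPM in MC26 and 44.3 to 57.5 CPM in M1B26. A part of other cells in the KIR counts was not tested.

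The 250 bases before the RefSeq start sites of KIR2DL3, KIR3DL2 and KIR2DL4 are shown because these genes were counted together (GRCh38.p14, plus strand, CG pairs in capitals):
KIR2DL3 chr19:54738263-54738512: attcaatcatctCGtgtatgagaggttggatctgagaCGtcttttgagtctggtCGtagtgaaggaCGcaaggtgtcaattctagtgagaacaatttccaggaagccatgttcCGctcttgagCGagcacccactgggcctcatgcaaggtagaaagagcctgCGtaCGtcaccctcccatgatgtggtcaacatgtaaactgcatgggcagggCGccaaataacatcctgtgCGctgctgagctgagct
KIR3DL2 chr19:54850193-54850442: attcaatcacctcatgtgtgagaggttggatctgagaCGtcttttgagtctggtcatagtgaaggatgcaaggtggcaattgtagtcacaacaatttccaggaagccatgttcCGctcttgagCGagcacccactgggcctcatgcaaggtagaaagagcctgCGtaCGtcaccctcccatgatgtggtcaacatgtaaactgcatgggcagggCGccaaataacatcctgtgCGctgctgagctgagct
KIR2DL4 chr19:54803360-54803609: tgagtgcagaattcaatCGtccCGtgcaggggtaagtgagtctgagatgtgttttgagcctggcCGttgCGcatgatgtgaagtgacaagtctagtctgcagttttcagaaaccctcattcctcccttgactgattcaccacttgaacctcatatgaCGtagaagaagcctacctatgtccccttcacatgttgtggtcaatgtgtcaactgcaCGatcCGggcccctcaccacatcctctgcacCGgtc
The windows of KIR2DL3 and KIR3DL2 were identical at 96.4% of aligned positions, whereas that of KIR2DL4 was 57.1 to 63.2% identical to the 6 other KIR windows. KIR windows held 3 (KIR3DL3) to 11 (KIR3DL1) CG pairs, and the median over 34788 RefSeq windows of this length was 11. TGTGGT, the core letters to which RUNX factors are known to bind, was found on either strand in all 7 KIR windows and in 11% of all windows. A match describes the letters and not a bound site.

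Among the other genes that were nearly silent in either line, ADD2 had the deepest loss. ADD2 encodes beta-adducin, which caps actin filaments and joins them to spectrin, and lies at chr2:70607618-70768225 on the minus strand. It had 37.8, 39.4 and 34 CPM in MC26 and 0 counts in each M1B26 library. CT had 33.9, 32.4 and 32.6 CPM. Against a floor of 3 counts per library the level in M1B26 was at least 573-fold lower than in MC26. TGFA, its nearest tested neighbour, was at 77.8, 67.9 and 52.6 CPM in MC26 and 64.1, 62.5 and 72.8 CPM in M1B26 and was not called (log2 fold change 0.01, SE 0.12, adjusted p 0.964 by edgeR). ZNF302, a zinc finger gene, PCSK1N, which encodes an inhibitor of a prohormone convertase, and LRIF1, which encodes an interactor of nuclear receptors, were also at 0 counts in all 3 M1B26 libraries. ZNF302 had 2.19, 2.51 and 2.21 CPM in MC26, PCSK1N had 2.21, 1.88 and 2.49 CPM and LRIF1 had 2.01, 1.6 and 1.53 CPM, which put them at least 35.6-fold, 34.0-fold and 26.5-fold lower in M1B26. PCDHB5, a protocadherin, had 0 or 1 counts per M1B26 library and 1.07, 1.73 and 1.44 CPM in MC26. Next to LRIF1, DRAM2 rose (log2 fold change 0.52, SE 0.08, adjusted p 5.71e-04 by edgeR). Genes next to ZNF302 and PCSK1N, named like DRAM2 for their position, had log2 fold changes of -0.06 for WTIP and -0.12 for ZNF181 beside ZNF302, and -0.18 for HDAC6 and -0.14 for PQBP1 beside PCSK1N, and none of them was called by edgeR (adjusted p 0.0610 to 0.743). HDAC6 passed the threshold without M1B26 replicate 2 (adjusted p 0.0406 by edgeR) or CT replicate 2 (0.0390), with unscaled totals (0.0474) and by DESeq2 (0.0469). PQBP1 passed it without CT replicate 2 (0.0395 by edgeR) and with offsets for gene length and GC content (0.00536).

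In the other direction 17 genes were at or under 3 counts in every MC26 library and at 1 CPM or more in every M1B26 library, 7 of them KIR genes. WT1, a zinc finger transcription factor of the developing kidney and gonad, had 0 counts in MC26 and 4.17, 4.17 and 4.38 CPM in M1B26, which is at least 56.9-fold higher. Its neighbours RCN1 (log2 fold change 0.11, adjusted p 0.358 by edgeR) and EIF3M (log2 fold change 0.30, adjusted p 0.00321 by edgeR) were expressed in both lines, and like SNAP91 below they are named for their position. RIPPLY2, a transcriptional repressor of somite formation, had 0 counts in MC26 and 1.65, 1.96 and 2.12 CPM in M1B26 (at least 25.7-fold higher). Its neighbour SNAP91 rose as well, from 0, 0 and 1 counts in MC26 to 26, 20 and 39 in M1B26 (adjusted p 6.75e-05 by edgeR). The rest were AUTS2, PRCD, ST6GALNAC3, COCH, CNTN1, FABP6, FCGRT and VWA1, at least 18.4-fold (VWA1) to 51.4-fold (AUTS2) higher. COCH had 2.04, 2.27 and 2.16 CPM in CT against 1.8, 2.06 and 2.79 CPM in M1B26, so for this gene it was MC26 that stood apart from CT. VWA1 was alike, with means of 1.05 CPM in CT and 1.37 CPM in M1B26 against 3 counts in each MC26 library.

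POGLUT3 and GLDC likewise had levels in M1B26 close to those of CT. POGLUT3 encodes a glucosyltransferase of the endoplasmic reticulum that modifies EGF repeats of Notch proteins (chr11:108472112-108498405, minus strand). Its level was 0.870, 0.863 and 1.11 CPM in MC26 and 26.5, 25.4 and 30.2 CPM in M1B26 (log2 fold change 4.85, SE 0.13, adjusted p 4.90e-09 by edgeR), and CT had 26.8, 31.1 and 27.6 CPM. All 3 MC26 libraries lay far below the other 6. The windows before its start and before a start of ADD2 are shown as the promoters of 2 genes that were switched in opposite directions (minus strand, CG pairs in capitals):
POGLUT3 chr11:108498385-108498634: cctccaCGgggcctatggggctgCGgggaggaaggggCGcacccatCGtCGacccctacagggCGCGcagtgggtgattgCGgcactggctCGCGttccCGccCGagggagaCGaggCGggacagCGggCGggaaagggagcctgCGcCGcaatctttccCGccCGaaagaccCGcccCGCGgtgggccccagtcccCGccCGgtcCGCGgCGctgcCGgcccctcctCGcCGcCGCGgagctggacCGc
ADD2 chr2:70768201-70768450: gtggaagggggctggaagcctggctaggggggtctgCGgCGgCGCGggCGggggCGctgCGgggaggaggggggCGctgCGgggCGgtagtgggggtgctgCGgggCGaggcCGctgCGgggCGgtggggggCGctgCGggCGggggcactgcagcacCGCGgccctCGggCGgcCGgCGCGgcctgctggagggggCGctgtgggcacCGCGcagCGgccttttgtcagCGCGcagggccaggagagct
They held 34 and 31 CG pairs, more than the 11 of the median window, and neither held TGTGGT on either strand. GLDC, the glycine decarboxylase of mitochondria, had 2.79, 2.51 and 4.61 CPM in MC26 and 37.3, 34.5 and 40.9 CPM in M1B26 (log2 fold change 3.5, SE 0.18, adjusted p 5.86e-07 by edgeR), and the CT level was 37.3, 35.2 and 32.8 CPM.

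**Figure D1:**
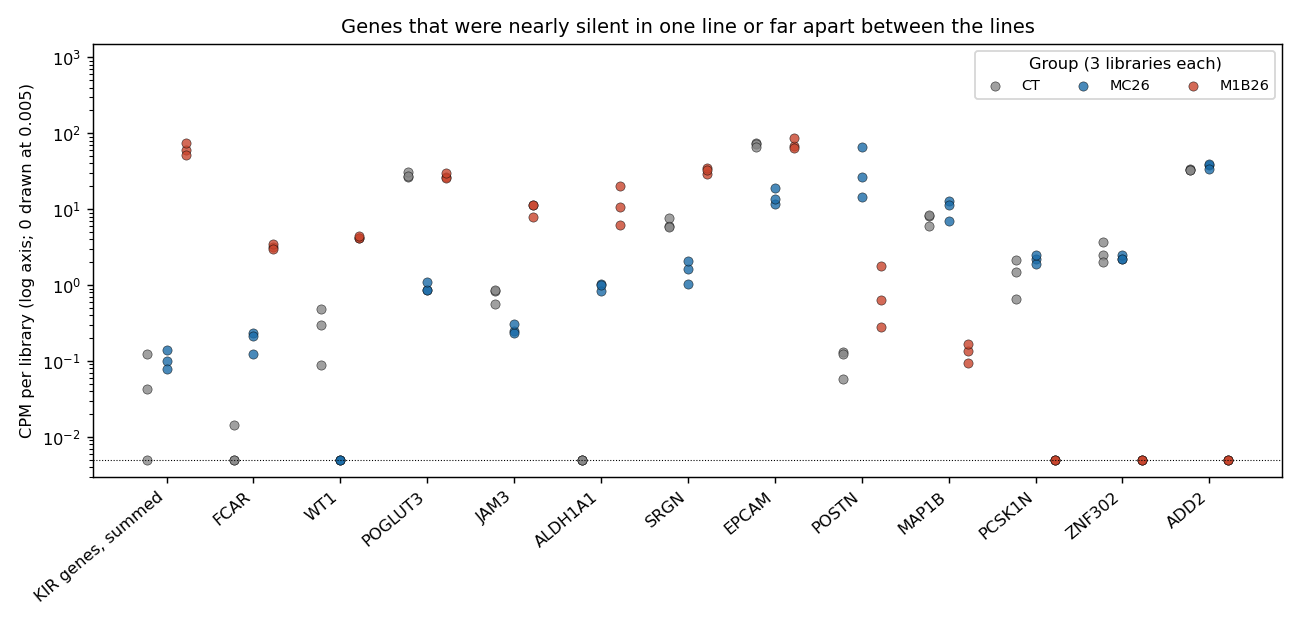
CPM in each of the 9 libraries (points, log axis, 0 drawn at 0.005) for genes far apart between MC26 (blue) and M1B26 (red), with CT in grey. ADD2, ZNF302 and PCSK1N are at 0 in all M1B26 libraries, WT1 is at 0 in all MC26 libraries, and POGLUT3, EPCAM and MAP1B show which transformed line is away from CT.

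Changes of 2-fold or more at a mean level of 5 CPM or above, with all libraries of the lines apart, were found for 308 genes, 206 of them higher and 102 lower in M1B26. Beside the KIR genes and POGLUT3, the largest rises were in JAM3, a junctional adhesion molecule, at 0.249, 0.235 and 0.306 CPM in MC26 and 11.3, 11.3 and 7.9 CPM in M1B26 (log2 fold change 5.25, SE 0.23, adjusted p 2.38e-07 by edgeR), and in SRGN, the core protein of secretory granule proteoglycans, at 1.02, 1.65 and 2.09 CPM in MC26 and 29.5, 34.9 and 33.2 CPM in M1B26 (log2 fold change 4.35, SE 0.20, adjusted p 3.06e-07 by edgeR). ALDH1A1, which oxidises retinaldehyde, had 0 counts in every CT library, 1.02, 0.837 and 1.01 CPM in MC26 and 10.6, 20.1 and 6.19 CPM in M1B26. KIF7, a kinesin of Hedgehog signalling at the cilium (3.41, SE 0.16), IGFBP4, which binds insulin-like growth factors (3.17, SE 0.17), CLIC2, a chloride channel protein (3.04, SE 0.18), SAMSN1, an adaptor of immune cells (2.80, SE 0.21), and DNAJC12, a chaperone of the HSP40 family (2.72, SE 0.15), followed. In each of these 5 genes every M1B26 library was above every MC26 library, as the rule that picked them required. RGPD5 came next, but it has near-identical copies, so its value is uncertain.

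The largest falls, after ADD2, were in MAP1B, a microtubule-associated protein best known from neurons, at 12.7, 11.5 and 7.01 CPM in MC26 and 0.135, 0.0947 and 0.166 CPM in M1B26 (log2 fold change -6.24, SE 0.33, adjusted p 6.72e-07 by edgeR), and in POSTN, the matrix protein periostin, at 65.9, 26.3 and 14.4 CPM in MC26 and 0.631, 1.78 and 0.277 CPM in M1B26 (log2 fold change -5.37, SE 0.64, adjusted p 1.20e-04 by edgeR). The MC26 libraries were spread for POSTN, and all lay above M1B26, as the same rule required. CT had 0.103 ± 0.0403 CPM of POSTN (SD, n = 3) and 7.58 ± 1.35 CPM of MAP1B. ALPP, a placental alkaline phosphatase (-3.42, SE 0.21), SAMD11 (-3.20, SE 0.32), VSTM2L (-2.90, SE 0.22), KCNJ15, a potassium channel (-2.61, SE 0.18), COL7A1, the collagen of anchoring fibrils (-2.52, SE 0.23), DLX2, a homeobox gene (-2.29, SE 0.33), ADGRG2, an adhesion G protein-coupled receptor (-2.12, SE 0.12), SUSD5 (-2.12, SE 0.18) and HR, a corepressor of nuclear receptors (-2.12, SE 0.20), were also among the 15 lowest. SMAD6, described below, was there too. The remaining genes of those 15, NMRAL2P and RN7SL2, are a pseudogene and a repeated small RNA whose single values are uncertain.

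BMPR1B, the receptor used to sort the founders of M1B26, was not higher in that line. Its level was 9.47, 10.6 and 11.1 CPM in MC26 and 8.14, 8.02 and 8.48 CPM in M1B26, and all 3 M1B26 libraries were below those of MC26. CT had 11.4, 15.2 and 11.3 CPM. The difference was just past the threshold (log2 fold change -0.34, SE 0.12, adjusted p 0.0483 by edgeR), and it missed it when any library but MC26 replicate 1, CT replicate 2 or CT replicate 3 was left out (adjusted p 0.0527 to 0.122 by edgeR) and with the replicate number as a block (0.0530). The type II receptor BMPR2 fell more firmly, from 62.7, 63.4 and 54.8 CPM in MC26 to 41.2, 33.1 and 41.1 CPM in M1B26 (log2 fold change -0.65, SE 0.11, adjusted p 9.11e-04 by edgeR). ACVR2B, a type II receptor shared with activins, rose (log2 fold change 0.71, SE 0.14, adjusted p 0.00308 by edgeR). The type I receptors BMPR1A (0.03, adjusted p 0.823) and ACVR1 (-0.20, adjusted p 0.0618) were not called by edgeR. ACVR1 passed the threshold without MC26 replicate 3 (0.0417) or CT replicate 2 (0.0321), or with unscaled totals (0.0441).

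Of the SMADs that carry the BMP signal, SMAD9 fell from 27.5, 22.9 and 16.6 CPM in MC26 to 10.4, 11 and 12.2 CPM in M1B26 (log2 fold change -0.99, SE 0.15, adjusted p 6.44e-04 by edgeR), and the CT level was 6.55 ± 0.246 CPM (SD, n = 3). SMAD1, SMAD5 and SMAD4 had log2 fold changes of 0.13, 0.09 and 0.07, and none was called by edgeR (adjusted p 0.252 to 0.419), but with offsets for gene length and GC content SMAD5 (0.0104) and SMAD4 (0.0261) were called higher. Of 15 receptors and SMAD mediators tested, 1 was higher and 3 were lower in M1B26 (5 lower without CT replicate 2; 3 higher and 4 lower with the offsets), where 21.2% and 18.4% of all genes tested were, with a median of -0.10 against 0.00 for all genes.

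Among 14 ligands and secreted antagonists 3 were higher and 4 lower (50% called, against 39.5% of all genes tested). Noggin (NOG), which binds BMPs and blocks them, fell from 4.1, 3.61 and 2.89 to 1.01, 0.899 and 1.37 CPM (log2 fold change -1.68, SE 0.24, adjusted p 4.25e-04 by edgeR). FSTL3, which binds activin and related ligands, fell from 345, 267 and 201 to 139, 167 and 111 CPM (log2 fold change -0.96, SE 0.19, adjusted p 0.00286 by edgeR). BMP6 (-1.5, SE 0.29) and BMP1, a protease that processes procollagen and frees BMPs from chordin (-0.78, SE 0.08), were the other members that fell. INHBA, the subunit of activin A, rose from 0.845, 0.889 and 0.635 to 2.5, 1.8 and 2.83 CPM (log2 fold change 1.59, SE 0.22, adjusted p 3.05e-04 by edgeR), and GDF15 (0.90, SE 0.22) and GDF11 (0.49, SE 0.11) rose too. RNA of BMP2 itself was low at 2.06, 2.9 and 2.4 CPM in MC26 and 1.65, 1.94 and 1.72 CPM in M1B26 and was not called (adjusted p 0.0519 by edgeR). It passed the threshold as lower in M1B26 without MC26 replicate 1 (0.0326) or CT replicate 2 (0.0418). It also passed with RLE size factors (0.0483), unscaled totals (0.045), a mean of at least 50 counts (0.0472) and offsets for gene length and GC content (0.0251). The RNA level says nothing of the BMP2 added to the medium.

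Among the target genes ID1 was not called, whereas a larger group fell in M1B26. ID1 had 468, 449 and 383 CPM in MC26 and 406, 435 and 422 CPM in M1B26 (log2 fold change -0.04, SE 0.13, adjusted p 0.821 by edgeR), against 98.9, 76.7 and 117 CPM in CT. ID2 had 15.4, 19.9 and 16 CPM in MC26 and 4.67, 3.57 and 4.04 CPM in M1B26 (log2 fold change -2.06, SE 0.16, adjusted p 8.09e-06 by edgeR), and CT had 0.885 ± 0.214 CPM (SD, n = 3). ID3 had 276, 225 and 176 CPM in MC26 and 122, 122 and 122 CPM in M1B26 (log2 fold change -0.88, SE 0.18, adjusted p 0.00291 by edgeR), and CT had 29.3 ± 7.81 CPM. For ID2 and ID3 the 3 lines did not overlap, and M1B26 lay between CT and MC26. ID proteins bind basic helix-loop-helix factors and keep them from DNA.

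The feedback inhibitors of the pathway fell too. SMAD6, which blocks the type I receptors, had 17.2, 13.4 and 8.33 CPM in MC26 and 1.78, 2.67 and 1.57 CPM in M1B26 (log2 fold change -2.70, SE 0.28, adjusted p 5.13e-05 by edgeR). SMAD7, which marks TGF-beta and BMP receptors for degradation, had 32.7, 28.7 and 20.9 CPM in MC26 and 11.4, 9.33 and 9.31 CPM in M1B26 (log2 fold change -1.46, SE 0.16, adjusted p 6.92e-05 by edgeR). BAMBI, a receptor lacking the kinase, had 12.3, 10.7 and 7.15 CPM in MC26 and 4.24, 5.7 and 5.25 CPM in M1B26 (log2 fold change -0.99, SE 0.19, adjusted p 0.00207 by edgeR). Mean levels in CT were 1.25 ± 0.301 CPM of SMAD6, 9.57 ± 1.17 CPM of SMAD7 and 5.62 ± 0.537 CPM of BAMBI (SD, n = 3), within about 1 CPM of the M1B26 means. ATOH8, a transcription factor induced by BMP in several cell types, was instead lower in M1B26 than in both others. CT had 6.11 ± 1.25 CPM (SD, n = 3), MC26 had 4.5, 5.07 and 5.22 CPM and M1B26 had 0.451, 1.11 and 1.51 CPM (log2 fold change -2.24, SE 0.31, adjusted p 3.11e-04 by edgeR).

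In all, 12 of 23 target genes were lower in M1B26 and 2 were higher, with a median of -0.46. This was 60.9% of the list, against 39.5% of all genes tested. The others that fell were DLX3 (63, 37 and 18 counts in MC26 and 0, 1 and 2 in M1B26), PMEPA1 (-1.94, SE 0.30) and SKIL (-1.48, SE 0.18), which are also TGF-beta targets, SNAI2 (-0.86, SE 0.17), GATA3 (-0.73, SE 0.11) and KLF10 (-0.45, SE 0.08). GATA2 (0.99, SE 0.20) and TCF7L1 (1.0, SE 0.16) rose. HEY1, HES1, MSX1 and MSX2 had values between -0.11 and 0.18 and were not called (adjusted p 0.475 or more by edgeR).

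**Figure D2:**
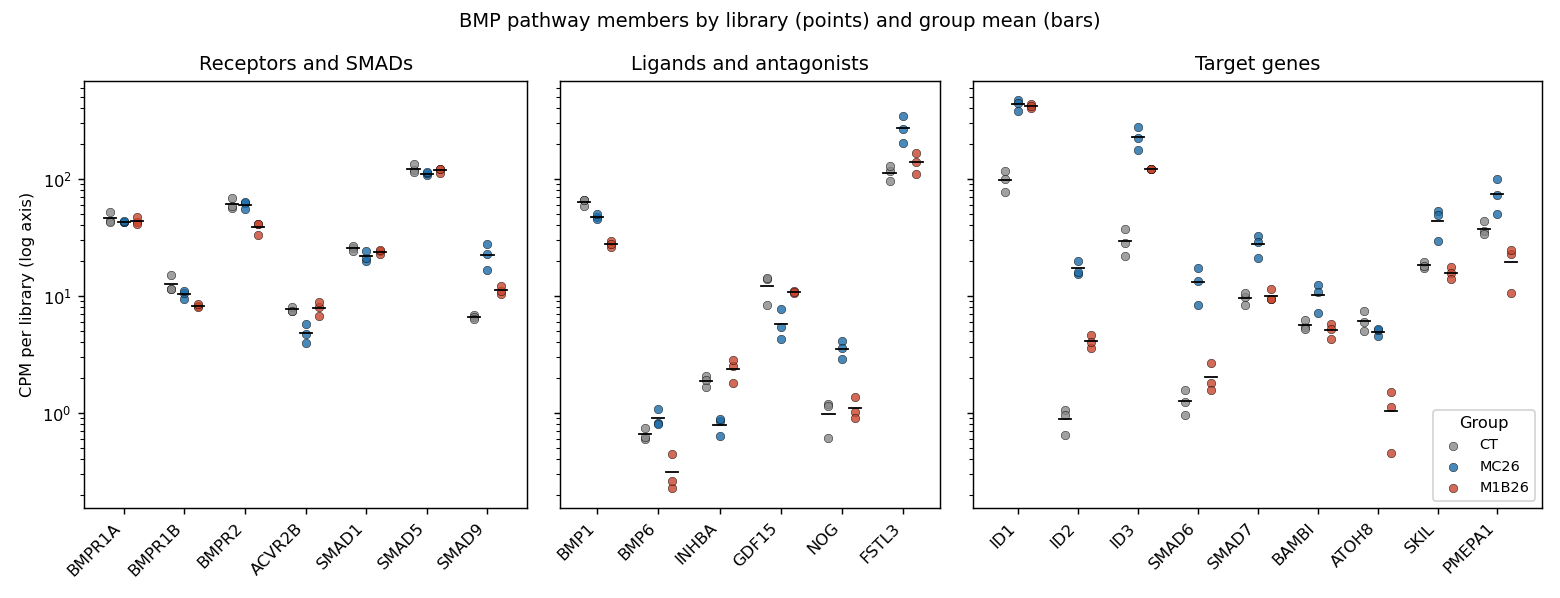
CPM in each library (points, log axis) and group means (bars) of BMP receptors and SMADs, ligands and antagonists, and target genes in CT (grey), MC26 (blue) and M1B26 (red). ID1 is at 383 to 468 CPM in both transformed lines, whereas ID2, ID3, SMAD6, SMAD7 and BAMBI are lower in every M1B26 library than in every MC26 library.

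On the IL6 side neither receptor chain was called. IL6R had 21.1, 18.9 and 20.7 CPM in MC26 and 20.1, 15.1 and 19.8 CPM in M1B26 (log2 fold change -0.14, SE 0.10, adjusted p 0.308 by edgeR) and IL6ST had 146, 169 and 153 CPM in MC26 and 146, 128 and 165 CPM in M1B26 (log2 fold change -0.09, SE 0.11, adjusted p 0.515 by edgeR). STAT3 (log2 fold change 0.16, adjusted p 0.207 by edgeR) was not called either, but passed the threshold without MC26 replicate 3 (0.0374) or with offsets for gene length and GC content (0.0253). Its feedback inhibitor SOCS3 had 27.9, 27.3 and 35.8 CPM in MC26 and 29.7, 29.9 and 34.9 CPM in M1B26 (log2 fold change 0.06, SE 0.12, adjusted p 0.745 by edgeR), and the CT level was 5.7 ± 0.815 CPM (SD, n = 3). Of 19 genes of IL6 family receptors, ligands, JAKs and STATs, 2 were higher and 8 lower in M1B26. This was 52.6% of the list, against 39.5% of all genes tested. Only 4 were lower without MC26 replicate 2 and 5 without M1B26 replicate 1 or 2. Ligands that act through gp130 or its relatives had the largest differences of this list. IL11 was at 3.21, 1.67 and 0.706 CPM in MC26 and 0.180, 0.426 and 0.222 CPM in M1B26 (log2 fold change -2.76, SE 0.52, adjusted p 0.00198 by edgeR) and CLCF1 was at 13, 9.57 and 6.42 CPM in MC26 and 4.89, 4.05 and 4.01 CPM in M1B26 (log2 fold change -1.16, SE 0.22, adjusted p 0.00205 by edgeR). LIF, in the other direction, was at 2.26, 2.72 and 2.26 CPM in MC26 and 5.28, 3.88 and 4.99 CPM in M1B26 (log2 fold change 0.97, SE 0.16, adjusted p 8.38e-04 by edgeR). STAT5B rose (log2 fold change 0.58, SE 0.06, adjusted p 4.57e-05 by edgeR). It lies on chromosome 17, as do STAT3, STAT5A and SOCS3, and that chromosome was higher as a whole in M1B26 (below). JAK1 had log2 fold change -0.27, adjusted p 0.0117 by edgeR, and 0.0513 without MC26 replicate 2.

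Target genes of IL6 and STAT3 moved in both directions, 5 of 24 each way, with a median of 0.08. This was 41.7% of the list, against 39.5% of all genes tested. Without MC26 replicate 3, 9 were higher, and 3 were lower without MC26 replicate 1, M1B26 replicate 2 or M1B26 replicate 3. With offsets for gene length and GC content 6 were higher and 9 lower. The acute-phase gene SAA1 had 39.8, 62 and 103 CPM in MC26 and 114, 153 and 323 CPM in M1B26 (log2 fold change 1.53, SE 0.38, adjusted p 0.00862 by edgeR), and SAA2, a near-identical copy whose split is uncertain, was also higher (1.66) and missed the threshold without MC26 replicate 2 (0.0760) or M1B26 replicate 3 (0.101). C3, the central complement component, had 513, 883 and 1184 CPM in MC26 and 1414, 1508 and 1612 CPM in M1B26 (log2 fold change 0.81, SE 0.22, adjusted p 0.0132 by edgeR). FOS (0.99, SE 0.18) and the survival gene MCL1 (0.57, SE 0.10) rose as well. TIMP1, an inhibitor of metalloproteinases, fell from 492, 506 and 503 to 209, 257 and 262 CPM (log2 fold change -1.05, SE 0.10, adjusted p 3.08e-05 by edgeR), VEGFA fell (-0.77, SE 0.14), and so did PIM1, a kinase (-0.60, SE 0.12). CISH (-0.66) and PTPN1 (-0.20) were past the threshold in the whole data but not without MC26 replicate 1 (adjusted p 0.0645 and 0.159 by edgeR), M1B26 replicate 2 (0.0556 and 0.114) or M1B26 replicate 3 (0.0678 and 0.134). PTPN1 also missed it without MC26 replicate 2 (0.0775) or CT replicate 1 (0.0602).

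Of 20 basal keratins and other basal genes, 14 were lower in M1B26 and 2 were higher, with a median of -0.54. This was 80% of the list, against 39.5% of all genes tested. KRT14, a keratin of the basal layer, had 1521, 766 and 1004 CPM in MC26 and 461, 558 and 625 CPM in M1B26 (log2 fold change -1.0, SE 0.22, adjusted p 0.00490 by edgeR), while CT had 54.1 ± 10.4 CPM (SD, n = 3). KRT5, its partner, had 6534, 5564 and 6694 CPM in MC26 and 5219.7, 4919 and 4633 CPM in M1B26 (log2 fold change -0.35, SE 0.10, adjusted p 0.0154 by edgeR), and adjusted p 0.0607 without M1B26 replicate 3. LAMA3, a laminin chain of the basement membrane, also fell (1315, 933 and 535 CPM in MC26 and 407, 395 and 432 CPM in M1B26; log2 fold change -1.17, SE 0.23, adjusted p 0.00257 by edgeR). KRT15 rose from 6.22, 6.62 and 12 to 21.5, 18.1 and 37.6 CPM (log2 fold change 1.64, SE 0.30, adjusted p 0.00159 by edgeR), still below the 139.6 ± 23.1 CPM of CT. ITGB4, the other member that rose (0.35), lies with KRT15 on chromosome 17 and lost its call in 5 fits that left out a library (MC26 replicate 2 or 3, M1B26 replicate 1 or 2, CT replicate 1; adjusted p 0.0538 to 0.142 by edgeR). TP63, the master regulator of basal cells, was not called (76.9, 78.7 and 78.6 CPM in MC26 and 81.4, 73.8 and 81.7 CPM in M1B26; log2 fold change 0.02, adjusted p 0.890 by edgeR).

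Of 8 myoepithelial contractile genes 1 was higher and 1 lower, with a median of -0.09. The share called, 25%, was below the 39.5% of all genes tested. TPM2, a tropomyosin, fell (-0.34, SE 0.09), 1 further member was lower without MC26 replicate 3 or M1B26 replicate 3, and smooth muscle actin ACTA2 (0.36, adjusted p 0.0486 by edgeR) missed the threshold without MC26 replicate 1, MC26 replicate 2, MC26 replicate 3, M1B26 replicate 1, M1B26 replicate 2, CT replicate 1 or CT replicate 3 (adjusted p 0.0514 to 0.158 by edgeR) and with the replicate number as a block (0.0731). ACTA2 and TPM2 were named after their values were seen.

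Of 16 luminal genes 6 were higher and 2 lower in M1B26, with a median of 0.59. The share called was 50%, against 39.5% of all genes tested. EPCAM, an adhesion molecule of simple epithelia, had 11.7, 13.5 and 19.1 CPM in MC26 and 67.1, 63.5 and 85.7 CPM in M1B26 (log2 fold change 2.28, SE 0.17, adjusted p 5.22e-06 by edgeR), and CT had 74.4, 71.2 and 65.6 CPM. The M1B26 and CT libraries overlapped and MC26 was below both. CLDN7 (1.56, SE 0.23), the simple epithelial keratins KRT8 (0.61, SE 0.08) and KRT18 (0.32, SE 0.07), and ERBB2 (1.04, SE 0.08) also rose, as did ESR1, the estrogen receptor (0.98), which missed the threshold without MC26 replicate 1, MC26 replicate 2, MC26 replicate 3, M1B26 replicate 1 or M1B26 replicate 3 (adjusted p 0.0563 to 0.0871 by edgeR). MUC1, the apical mucin, fell from 108, 184 and 246 to 44.3, 57.3 and 64.4 CPM (log2 fold change -1.70, SE 0.27, adjusted p 6.97e-04 by edgeR), and GATA3, a luminal transcription factor, fell from 11.1, 13.2 and 13.1 to 7.26, 7.98 and 7.31 CPM.

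Of 14 tight junction genes tested, 7 were higher in M1B26 and 2 lower (1 without MC26 replicate 1, M1B26 replicate 1 or M1B26 replicate 2, and 1 with the offsets for gene length and GC content), with a median of 0.50. With all libraries 64.3% were called, against 39.5% of all genes tested. Occludin (OCLN) had 0.497, 0.445 and 0.353 CPM in MC26 and 1.83, 1.99 and 3.31 CPM in M1B26 (log2 fold change 2.46, SE 0.28, adjusted p 8.85e-05 by edgeR), and CT had 4.45 ± 0.640 CPM (SD, n = 3). Claudin 1 (CLDN1) had 1.54, 1.91 and 3.15 CPM in MC26 and 6.85, 4.69 and 9.44 CPM in M1B26 (log2 fold change 1.67, SE 0.29, adjusted p 0.00127 by edgeR), and MARVELD3, a further membrane protein of the junction, had 4.25, 2.85 and 4.24 CPM in MC26 and 11.2, 10.9 and 14.6 CPM in M1B26 (log2 fold change 1.69, SE 0.19, adjusted p 6.92e-05 by edgeR). CDH1, the E-cadherin of adherens junctions, was not called (log2 fold change 0.12, adjusted p 0.577 by edgeR). TJP1 (-0.38, SE 0.09), named after its values were seen, fell.

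**Figure D3:**
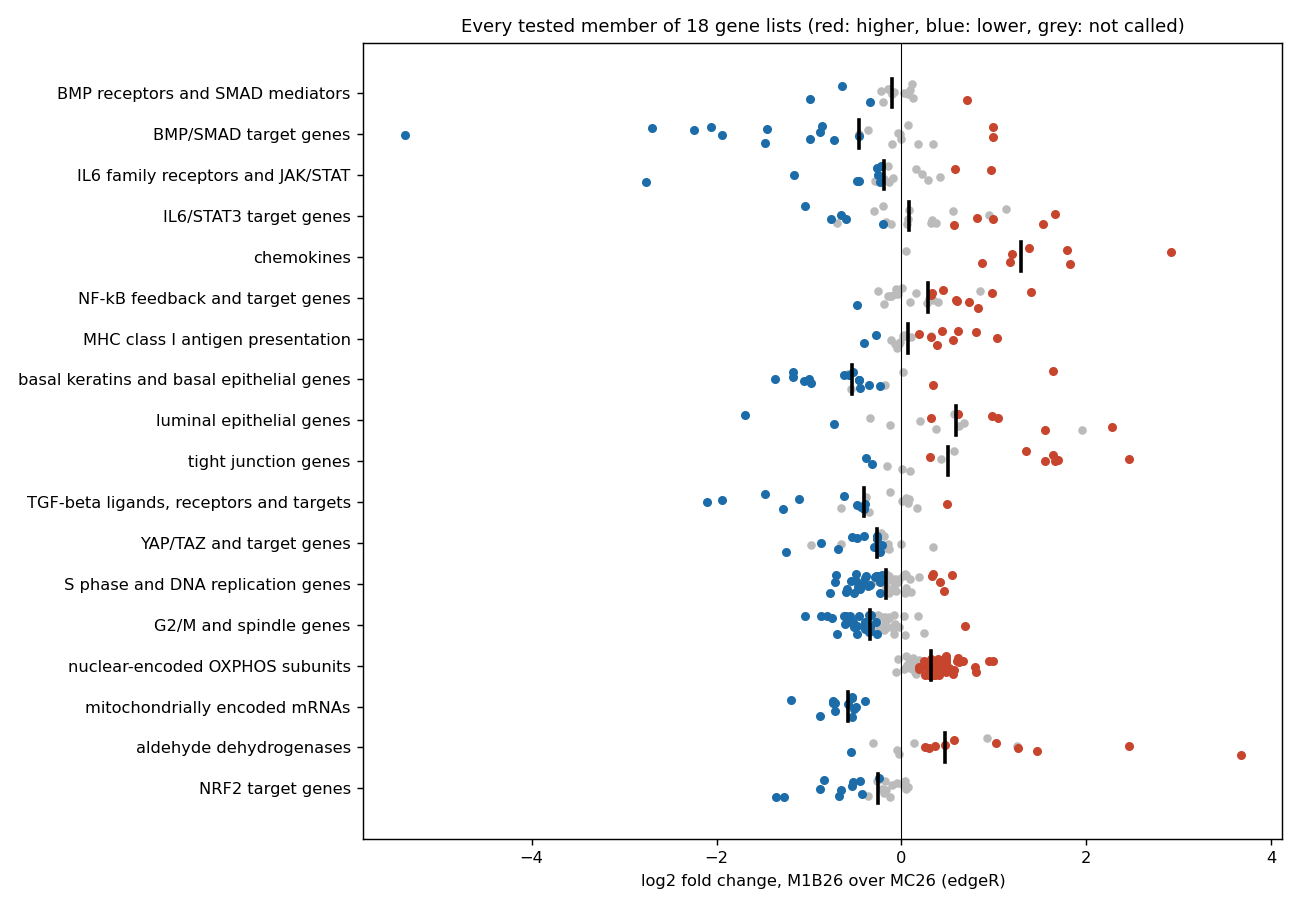
Log2 fold change of M1B26 over MC26 for every tested member of 18 gene lists (points), with list medians as black bars. Points are red where higher in M1B26, blue where lower and grey where not called, and 13 of 13 mitochondrially encoded mRNAs are blue whereas 50 of 75 nuclear-encoded OXPHOS subunits are red.

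Mesenchymal and TGF-beta genes more often fell than rose in M1B26. Of 19 genes of the epithelial-mesenchymal transition 9 were lower and 3 higher (5 higher without MC26 replicate 3). With all libraries 63.2% were called, against 39.5% of all genes tested. N-cadherin (CDH2) fell from 15.7, 16.5 and 15.4 to 9.42, 8.31 and 12 CPM (log2 fold change -0.68, SE 0.12, adjusted p 0.00157 by edgeR). CDH11, SPARC and GNG11 were the members that rose (2.03, 0.65 and 0.43). Vimentin (VIM) had 1287, 1149.8 and 931 CPM in MC26 and 938, 1022 and 929 CPM in M1B26 and was not called (log2 fold change -0.22, adjusted p 0.152 by edgeR), but it passed the threshold without MC26 replicate 3 (0.0177). Of 20 TGF-beta ligands, receptors and targets 10 were lower and 1 higher (2 without MC26 replicate 3), with a median of -0.40. Here 55% were called with all libraries. TGFBI had 7972, 6319.9 and 3552 CPM in MC26 and 2289, 2866 and 2207 CPM in M1B26 (log2 fold change -1.28, SE 0.23, adjusted p 0.00149 by edgeR). SKIL and PMEPA1, above, belong to this list too. The receptor TGFBR2, the member that rose (0.50, SE 0.09), was named after its values were seen.

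Matrix glycoproteins were mixed, with 6 of 32 higher and 8 lower (43.8% called, against 39.5% of all genes tested). Lumican (LUM), a collagen-binding proteoglycan, rose from 0, 3 and 13 counts in MC26 to 211, 262 and 237 in M1B26 (log2 fold change 5.25, SE 0.49, adjusted p 2.68e-05 by edgeR). Thrombospondin 1 (THBS1) fell from 965, 594 and 651 to 298, 228 and 200.4 CPM (log2 fold change -1.61, SE 0.18, adjusted p 9.31e-05 by edgeR). ITGA4, the integrin chain that binds VCAM1 and fibronectin, had 13.2, 15.8 and 15.5 CPM in MC26 and 3.09, 3.48 and 4.1 CPM in M1B26 (log2 fold change -2.06, SE 0.12, adjusted p 1.56e-06 by edgeR), and ADAM12, a metalloprotease, fell (-1.60, SE 0.16). Of 11 fibroblast markers 6 reached 1 CPM in some library, LUM and COL1A1 among them, THY1 was at 0, and their summed level was 137 to 185 CPM in MC26 and 119 to 142 CPM in M1B26. Their part in these differences was not tested.

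Of 21 YAP and TAZ genes and targets, 11 were lower and 0 higher, with a median of -0.26, but only 6 were lower without M1B26 replicate 2 and 7 without MC26 replicate 1 (1 was higher without CT replicate 2 or 3 or M1B26 replicate 3, or with the replicate number as a block). With all libraries 52.4% were called, against 39.5% of all genes tested. The tissue factor gene F3 (-1.25, SE 0.27), NT5E, which encodes CD73 (-0.87, SE 0.17), CCN1 (-0.69, SE 0.15) and AMOTL2 (-0.54, SE 0.13) fell the most. CCN2, the best-known target, had 22.9, 16.3 and 12.2 CPM in MC26 and 11.6, 14.3 and 6.89 CPM in M1B26 and was not called (log2 fold change -0.65, adjusted p 0.0621 by edgeR), and was called without MC26 replicate 3 (0.0169) or M1B26 replicate 2 (0.0311), and with the replicate number as a block (0.0338).

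Among proliferation genes more fell than rose in M1B26. MKI67, the Ki-67 antigen of cycling cells, had 575, 503 and 440.3 CPM in MC26 and 258, 221 and 261 CPM in M1B26 (log2 fold change -1.04, SE 0.11, adjusted p 4.91e-05 by edgeR). Of 53 G2/M and spindle genes 30 were lower and 1 higher (2 without MC26 replicate 1 or CT replicate 2 or with the offsets), with a median of -0.34, and of 51 S phase and replication genes 23 were lower and 5 higher, with a median of -0.17. Shares called were 58.5% and 54.9%, against 39.5% of all genes tested. CENPE, a kinetochore motor (-0.87, SE 0.16), ASPM, at the spindle poles (-0.80, SE 0.13), and CENPF (-0.75, SE 0.11) led the first list, and CLSPN, of the replication checkpoint (-0.77, SE 0.08), and the transcription factor E2F1 (-0.72, SE 0.12) led the second. The members that rose, named after their values were seen, were BIRC5 in the first list (0.69) and RPA3, TK1, RPA1, GINS2 and DUT in the second (0.34 to 0.55). Of these, TK1 missed the threshold without MC26 replicate 2 (0.0550). BIRC5, TK1 and RPA1 lie on chromosome 17, which was higher as a whole in M1B26 (below). Cyclin D2 (CCND2) went the other way, at 15.8, 13.9 and 13.7 CPM in MC26 and 45.6, 45.5 and 47.7 CPM in M1B26 (log2 fold change 1.68, SE 0.11, adjusted p 2.31e-06 by edgeR), and the CT level was 4.54 ± 0.756 CPM (SD, n = 3). The CDK inhibitor CDKN2C fell from 31.6, 27 and 26.1 to 14.8, 15.4 and 15.2 CPM (log2 fold change -0.90, SE 0.09, adjusted p 4.72e-05 by edgeR). The genes of the G2/M list that were not called include TOP2A (0.03) and AURKB (0.24), which lie on chromosome 17 and were named after their values were seen. AURKB was called without MC26 replicate 1 (adjusted p 0.0115 by edgeR).

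Respiratory chain genes changed in opposite directions according to the genome that encodes them. Nuclear-encoded subunits of oxidative phosphorylation (OXPHOS) were higher in M1B26 for 50 of 75 genes and lower for 0, with a median of 0.32. This was 66.7% of the list, against 39.5% of all genes tested. ATP5PO, a stalk subunit of ATP synthase, had 142, 140.4 and 161 CPM in MC26 and 291, 318 and 272 CPM in M1B26 (log2 fold change 0.99, SE 0.08, adjusted p 1.23e-05 by edgeR), and NDUFA2, of complex I, had 52.2, 45.9 and 57.5 CPM in MC26 and 92.5, 94.6 and 82.7 CPM in M1B26 (log2 fold change 0.79, SE 0.10, adjusted p 1.51e-04 by edgeR). ATP5MC1 (0.95, SE 0.09) and ATP5PD (0.81, SE 0.07), of ATP synthase and both on chromosome 17, also rose. All 13 mRNAs of the mitochondrial genome were lower, with a median of -0.58. MT-ND1 had 611, 779 and 580.4 CPM in MC26 and 445, 417 and 317 CPM in M1B26 (log2 fold change -0.74, SE 0.13, adjusted p 0.00151 by edgeR) and MT-ND5 had 1062, 1417 and 943 CPM in MC26 and 689.7, 637 and 529 CPM in M1B26 (log2 fold change -0.88, SE 0.14, adjusted p 7.04e-04 by edgeR). MT-ND6, the one on the opposite strand, had the largest fall (-1.20, SE 0.28), but strandedness of the counting is not stated. Genes of the mitochondrial genome held 1.87 to 2.68% of counts in MC26, 1.26 to 1.59% in M1B26 and 1.92 to 2.09% in CT. MT-CO3 (-0.39) missed the threshold without MC26 replicate 2 (adjusted p 0.0772 by edgeR), the library with the highest share, or without M1B26 replicate 3 (0.0787), the library with the lowest. With offsets for gene length and GC content the medians were 0.23 for the nuclear subunits (46 higher, 2 lower) and -0.71 for the mitochondrial mRNAs.

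**Figure D4:**
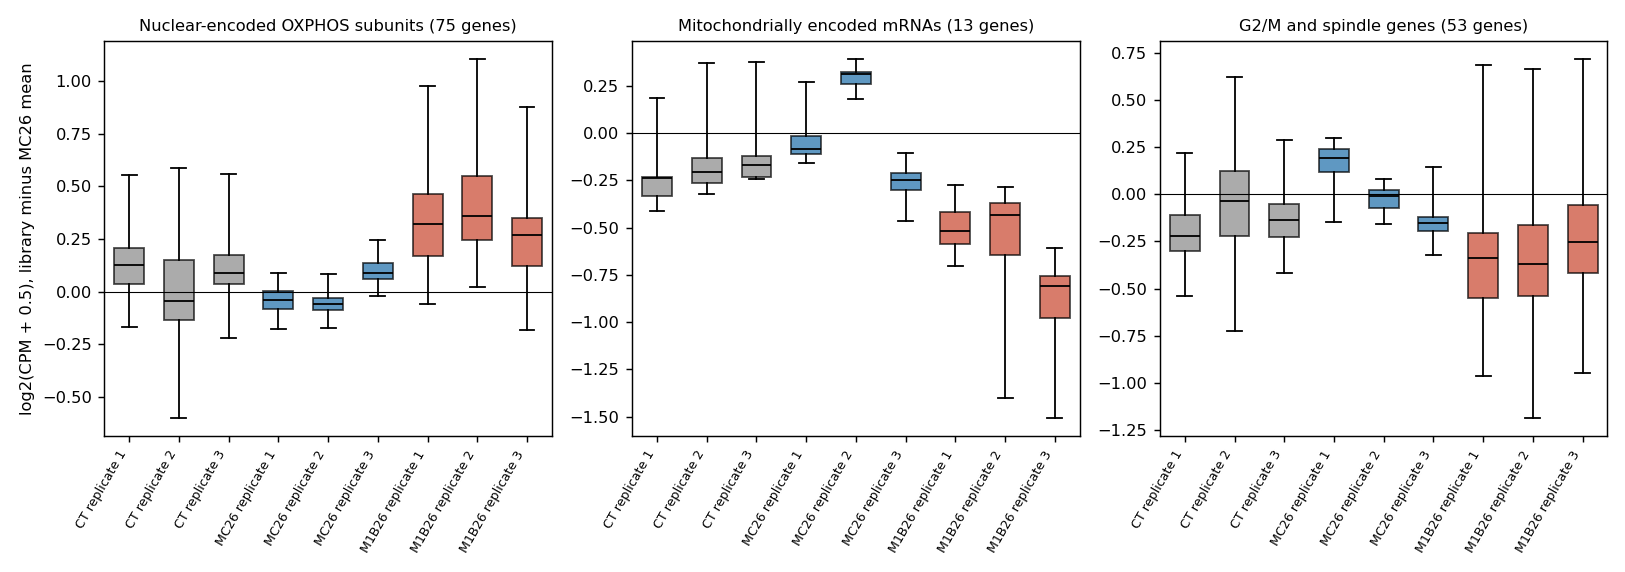
Log2(CPM + 0.5) of each list member in each library minus its MC26 mean, as boxes (median and quartiles, whiskers to the extremes). Medians of the nuclear OXPHOS subunits are 0.27 to 0.36 in M1B26 libraries against -0.06 to 0.09 in MC26, those of mitochondrial mRNAs are -0.81 to -0.43 against -0.25 to 0.31, and those of G2/M genes are -0.37 to -0.25 against -0.15 to 0.19.

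Chemokine genes were higher in M1B26. Of 8 chemokines tested, 7 were higher and 0 lower, with a median of 1.29 (87.5% called, against 39.5% of all genes tested). CXCL1 had 38.6, 66.2 and 81.9 CPM in MC26 and 221, 204 and 239 CPM in M1B26 (log2 fold change 1.83, SE 0.20, adjusted p 8.03e-05 by edgeR) and CXCL8, which like CXCL1 attracts neutrophils, had 5.05, 7.4 and 8.45 CPM in MC26 and 21.7, 24.6 and 26 CPM in M1B26 (log2 fold change 1.79, SE 0.16, adjusted p 2.02e-05 by edgeR). CCL2, which attracts monocytes and lies on chromosome 17, had the largest rise (2.92, SE 0.43) and was named after its values were seen. CXCL2 (1.38, SE 0.11) and CXCL16 (1.20, SE 0.17) rose as well. All 3 libraries of M1B26 were above those of MC26 for CXCL1, CXCL2, CXCL8 and CXCL16, and the CT means of CXCL1 and CXCL8, 30.1 ± 1.32 and 4.16 ± 0.445 CPM (SD, n = 3), were below both lines. CXCL1 and CXCL2 are close copies, so reads may have been shared between them.

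Of 26 NF-kB feedback and target genes 9 were higher and 1, BIRC2, lower, with a median of 0.29. This was 38.5% of the list, against 39.5% of all genes tested, and with offsets for gene length and GC content 9 were higher and 4 lower. BIRC2 (-0.48), named after its values were seen, lost its call without MC26 replicate 1 or 2 or M1B26 replicate 1 or 2 (adjusted p 0.0634 to 0.0992 by edgeR). IL1B, a cytokine that activates NF-kB, had 94.7, 115 and 75.2 CPM in MC26 and 248, 202 and 305 CPM in M1B26 (log2 fold change 1.41, SE 0.16, adjusted p 1.01e-04 by edgeR), and CT had 14.5 ± 0.939 CPM (SD, n = 3). IL1A (0.83, SE 0.14) and CSF3, the granulocyte growth factor G-CSF (0.98, SE 0.12), rose too. Among leukocyte markers CSF1R fell from 14.9, 9.26 and 5.34 to 5.64, 5.25 and 5.32 CPM (adjusted p 0.0304 by edgeR) and missed the threshold without MC26 replicate 1, MC26 replicate 2, M1B26 replicate 1, M1B26 replicate 2 or M1B26 replicate 3 (adjusted p 0.0584 to 0.129 by edgeR). LAPTM5 had 1.42, 2.67 and 3.93 CPM in MC26 and 4.6, 5.61 and 4.21 CPM in M1B26 (adjusted p 0.0267 by edgeR) and missed the threshold without MC26 replicate 2 (0.0737), M1B26 replicate 1 (0.0526) or M1B26 replicate 2 (0.0945). CD14, a receptor that epithelial cells can also express, rose from 9.72, 12 and 17.8 to 33.9, 33.8 and 47.9 CPM and made up most of the difference in the sum. The summed level of the 10 leukocyte markers was 24.0 to 27.2 CPM in MC26 and 44.3 to 57.5 CPM in M1B26. PTPRC, as given above, had 1 count in these 6 libraries.

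Of 20 genes of MHC class I presentation 8 were higher and 2 lower (1 without MC26 replicate 2 or 3, M1B26 replicate 1 or 2, or CT replicate 1, or with the replicate number as a block), with a median of 0.07. With all libraries 50% were called, against 39.5% of all genes tested. HLA-F had 8.13, 7.64 and 7.93 CPM in MC26 and 14.4, 16.4 and 17.7 CPM in M1B26 (log2 fold change 1.03, SE 0.12, adjusted p 1.13e-04 by edgeR), B2M, the shared light chain, had 378, 384 and 404 CPM in MC26 and 552, 619 and 547 CPM in M1B26 (log2 fold change 0.56, SE 0.08, adjusted p 3.59e-04 by edgeR), and PSME1, a proteasome activator, rose (0.81, SE 0.10). The members that fell, named after their values were seen, were TAP2, a peptide transporter (-0.40), and ERAP1, a peptidase (-0.28), and ERAP1 missed the threshold without MC26 replicate 2, MC26 replicate 3, M1B26 replicate 1, M1B26 replicate 2 or CT replicate 1 (adjusted p 0.0596 to 0.166 by edgeR) and also missed it with the replicate number as a block (0.0560). Interferon-stimulated genes were mixed, with 12 of 37 higher and 5 lower (3 without M1B26 replicate 1) and a median of 0.03. The share called was 45.9%, against 39.5% of all genes tested. LGALS3BP, on chromosome 17, rose (1.14, SE 0.12), OAS1 rose (0.99, SE 0.18) and HERC5, the ligase of ISG15, fell from 5.99, 5.52 and 4.78 to 1.06, 1.21 and 0.979 CPM (log2 fold change -2.33, SE 0.17, adjusted p 5.16e-06 by edgeR). DTX3L (-0.44) fell as well. OAS2 (-1.35) missed the threshold without MC26 replicate 3 (0.0789), M1B26 replicate 1 (0.0571) or M1B26 replicate 3 (0.0585), and SAMD9 (-0.46) missed the threshold without MC26 replicate 2 (0.0634), M1B26 replicate 1 (0.0584) or M1B26 replicate 2 (0.0689).

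Of 15 stem and progenitor surface markers 5 were higher and 4 lower (60% called, against 39.5% of all genes tested). MME, which encodes CD10, had 6.19, 12.8 and 21.7 CPM in MC26 and 44.2, 51.6 and 43.8 CPM in M1B26 (log2 fold change 1.78, SE 0.32, adjusted p 0.00145 by edgeR), so that it was higher in every M1B26 library. NGFR, the nerve growth factor receptor, was low but higher at 26, 16 and 29 counts against 1, 1 and 6, CD9 rose (0.85, SE 0.11), EPCAM is given above, and PROCR (0.27) missed the threshold without MC26 replicate 2 (0.0773) or M1B26 replicate 2 (0.0528). NT5E, CD44 (-0.46), ITGA6 (-0.46) and BMPR1B were the members that fell, and PROCR and ITGA6 were named after their values were seen. Of 17 aldehyde dehydrogenases 10 were higher and 1 lower (6 higher and 2 lower without MC26 replicate 1), with a median of 0.48. With all libraries 64.7% of them were called. ALDH1A3, which also makes retinoic acid, had 53, 46.4 and 23.5 CPM in MC26 and 119, 75.7 and 144 CPM in M1B26 (log2 fold change 1.47, SE 0.27, adjusted p 0.00187 by edgeR) and ALDH5A1 rose (1.26, SE 0.18), while ALDH1L2 fell (-0.55). Of 21 genes of serine, glycine and one-carbon metabolism 10 were higher and 3 lower (5 without MC26 replicate 1 or CT replicate 2). With all libraries 61.9% of them were called. CBS and GLDC led the rises, and SLC1A4, MTR and MTHFD1L fell (-0.71, -0.45 and -0.23). CBS, which makes cystathionine, rose from 0.0497, 0.288 and 0.447 to 4.67, 4.8 and 3.77 CPM (log2 fold change 4.05, SE 0.37, adjusted p 2.28e-05 by edgeR), and PHGDH, the first enzyme of serine synthesis, rose from 34.4, 42.7 and 47.7 to 75.1, 80.8 and 90.3 CPM (log2 fold change 0.98, SE 0.11, adjusted p 1.08e-04 by edgeR). For GLDC and CBS, M1B26 was near CT (CBS 3.87 ± 0.616 CPM, SD, n = 3), and MC26 was far below.

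Of 24 NRF2 targets of the antioxidant response 11 were lower and 0 higher, with a median of -0.25. This was 45.8% of the list, where 39.5% of all genes tested were called and 18.4% were lower. GCLM, of glutathione synthesis, had 75.1, 74.4 and 54.5 CPM in MC26 and 37.6, 37.8 and 38.8 CPM in M1B26 (log2 fold change -0.84, SE 0.12, adjusted p 3.49e-04 by edgeR), SLC7A11, the cystine importer, fell (-0.88, SE 0.18), and FTL, the ferritin light chain, fell (-0.67, SE 0.15). Among 16 EGF receptor family genes 6 were higher and 1, EGFR itself, lower (2 without MC26 replicate 1). The share called was 43.8%, near that of all genes tested. Epiregulin (EREG) had 47.9 ± 3.73 CPM in MC26 and 99.9 ± 7.61 CPM in M1B26, without overlap (SD, n = 3; log2 fold change 1.06, SE 0.11, adjusted p 3.89e-05 by edgeR), and EGFR, named after its values were seen, had 459, 431 and 405 CPM in MC26 and 332, 258 and 309 CPM in M1B26 (log2 fold change -0.53, SE 0.09, adjusted p 0.00109 by edgeR). Of 22 Notch genes 5 were higher and 7 lower (3 lower without M1B26 replicate 2 and 4 without MC26 replicate 1), with a median of 0.12. With all libraries 54.5% were called, against 39.5% of all genes tested. POGLUT3 is given above. Of the genes that modify Notch receptors with sugars, RFNG, on chromosome 17, rose (1.03) and LFNG fell (-0.83). Only LFNG of the 7 lower members is named here, so the named genes do not show the balance of the list. DLK2 (0.49), named after its values were seen, was called but missed the threshold without MC26 replicate 1, MC26 replicate 2, M1B26 replicate 1 or M1B26 replicate 2 (adjusted p 0.0576 to 0.116 by edgeR). NOTCH3, also named after its values were seen, rose from 3, 6 and 5 counts to 31, 29 and 124 counts (log2 fold change 3.40, SE 0.70, adjusted p 0.00317 by edgeR) and DLL1, a ligand, rose (1.54, SE 0.27).

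Chromosome 17 differed from all other chromosomes. Of its 851 tested genes 570 were higher in M1B26 and 23 lower (69.7% called), 87.8% had a positive fold change, and their median was 0.48, a 1.39-fold difference. Medians of the other nuclear chromosomes lay between -0.07 and 0.08. The running median over 41 neighbouring genes stayed between 0.21 and 0.70 along the whole chromosome. In single libraries, the chromosome 17 median of log2(CPM + 0.5) relative to the MC26 mean was 0.45, 0.43 and 0.45 in M1B26 and -0.05 to 0.02 in CT, so the shift was in M1B26. DNA copy number was not measured.

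Several genes named above lie on chromosome 17. ERBB2 (chr17:39687914-39730426, plus strand) had 46, 46.5 and 52.2 CPM in MC26 and 102, 96.5 and 100.2 CPM in M1B26 (log2 fold change 1.04, SE 0.08, adjusted p 8.39e-06 by edgeR), above the chromosome median. HOXB4 (1.78, SE 0.14), HOXB3 (1.66, SE 0.20) and HOXB6 (1.30, SE 0.14) also stood above it, whereas HOXC13, on chromosome 12, fell (-1.14, SE 0.15). IGFBP4, CXCL16, CCL2, CSF3, CLDN7, NGFR, RFNG, BIRC5, TK1 and RPA1 are on chromosome 17 too. STAT3 and SOCS3, which were not called in the main fit, lie there as well. NOG, DLX3, KRT14, KRT16 and STAT5A were lower in M1B26 in spite of lying there. STAT5A (-0.46) was called only with MC26 replicate 3, CT replicate 2 or CT replicate 3 as the library left out, or with none (adjusted p 0.0559 to 0.118 otherwise, by edgeR), and missed the threshold with the replicate number as a block (0.0552). KRT16 (-1.37) lost its call without M1B26 replicate 2 (0.0606). Without the genes placed on chromosome 17, 2758 of 14866 genes were higher in M1B26 and 2864 lower. These 14866 include tested genes whose symbol was matched to no position, so some of them may lie on chromosome 17. Of changes of at least 2-fold, 805 were higher and 341 lower among these 14866 genes, and 126 were higher and 12 lower among those placed on chromosome 17.

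**Figure D5:**
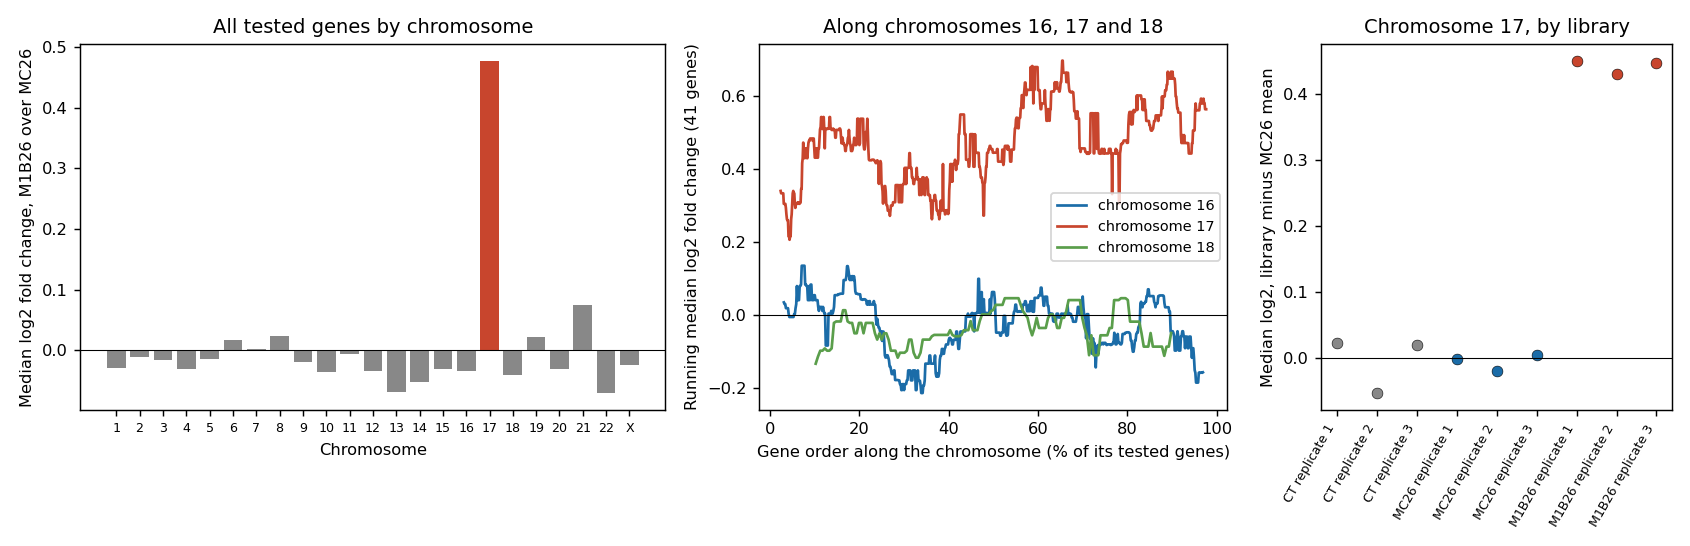
Median log2 fold change of M1B26 over MC26 by chromosome (left), running median over 41 genes along chromosomes 16, 17 and 18 in gene order (middle), and the chromosome 17 median of each library relative to the MC26 mean (right). Chromosome 17 stands at 0.48 and its M1B26 libraries at 0.43 to 0.45, while the other nuclear chromosomes and the CT and MC26 libraries stay near 0.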

How the data were processed

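RNA-seq of 3 replicates each of CT, MC26 and M1B26 was used, grouped by sample title. The authors deposited raw counts per gene symbol for the 9 libraries, as whole numbers; they name STAR 2.7.3a, Salmon 1.1.0 and build GRCh38. The counting step, its strand setting and its handling of multi-mapped reads are not given in the sources used here, so values of overlapping genes and close copies are uncertain.

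Counts were filtered with edgeR 4.0.16 (filterByExpr, minimum count 10), scaled by TMM and fitted over the 3 groups (R 4.3.3, quasi-likelihood test, Benjamini-Hochberg adjusted p under 0.05 over all 15717 genes). CT entered only to share the spread. CPM are scaled to each library's counts in tested genes times its TMM factor. A pseudocount of 0.5 CPM was used where values are given as log2(CPM + 0.5). The fit was tested on simulated data. Deviations from the line means correlated at 0.168, 0.119 and 0.190 between same-numbered libraries and at -0.191 to 0.04 between the others. Centring on so few libraries lowers the latter by itself, so these weak values do not settle whether the replicate numbers pair the lines. The main fit used no block. DESeq2 1.42.0, other scalings, filters, offsets, a replicate block and single libraries left out were alternatives. Coordinates of genes are from the files' build, and promoter windows from RefSeq GRCh38.p14.

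Named genes were a set of pathway genes, the 15 highest and 15 lowest past 2-fold, 5 CPM and non-overlap, up to 4 changed members per list, every member of the BMP and IL6 lists, genes silent in either line (at or under 3 counts) and cell type markers. Members and lists were chosen with earlier results of these data known. Some genes that the rule names are not reported here.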

Additional observations from a re-analysis of the deposited data

How the results depend on the processing

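Of 331 genes checked under 20 settings, 288 were called, none reversed, 246 kept their call whichever library was left out, 266 kept it under every other setting but the test against a 1.5-fold change, and 143 kept it under that test too. Against 1.5-fold, 964 genes were changed, 728 higher and 236 lower in M1B26, and 838 of them were at least 2-fold. With a mean of at least 50 counts required, 726 genes were changed at least 2-fold. Leaving out 1 library gave 4552 to 7124 changed genes, 2483 to 3634 higher, 2024 to 3490 lower and 1130 to 1472 at least 2-fold, against 6215, 3328, 2887 and 1284 with all. It gave chromosome 17 medians of 0.47 to 0.491. Under the other scalings, filters, offsets and DESeq2 each of these counts stayed within 1.5 times its value. With a floor of 10 counts in place of 3, 36 genes in place of 17 were silent in MC26 and 8 in place of 5 in M1B26.

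With the replicate number as a block 6009 genes were changed and 3239 were higher in M1B26. Of the genes checked, BMPR1B, OSMR, STAT5A, HOXA7, HOXC6, ERAP1 and ACTA2 lost their call under the block (adjusted p 0.0521 to 0.0731 by edgeR) and KRT17, SOD2 and CCN2 gained one, and the block changed no other call among the genes named here. With 3 libraries per line and MC26 the more spread line, small changes depended on single libraries, and genes under a few counts per library had no measurable fold.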

Other observations

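Genes outside the lists described so far also separated the lines. CD40, a receptor of the TNF family, had 33, 30 and 31 counts in MC26 and 2, 3 and 1 in M1B26 (log2 fold change -4.10, SE 0.39, adjusted p 2.68e-05 by edgeR), and was named after its values were seen. Involucrin (IVL), a protein of the cornified envelope, had 6.64, 4.05 and 1.76 CPM in MC26 and 0.428, 0.402 and 0.259 CPM in M1B26 (log2 fold change -3.52, SE 0.51, adjusted p 4.21e-04 by edgeR). The MC26 libraries were spread for IVL and all lay above M1B26, with 0.631 ± 0.299 CPM in CT (SD, n = 3). Its list went the other way. Of 16 cornified envelope and late epidermal genes tested, 4 were higher and 1, IVL, lower, with a median of 0.645. This was 31.2% of the list, against 39.5% of all genes tested. SLC2A3, a glucose transporter, fell from 4.25, 5.62 and 6.07 to 0.947, 1.35 and 1.55 CPM (log2 fold change -2.04, SE 0.20, adjusted p 3.61e-05 by edgeR), and the glycolytic enzyme ENO2 rose from 0.845, 1.1 and 1.25 to 5.16, 5.51 and 6.15 CPM (log2 fold change 2.40, SE 0.17, adjusted p 3.88e-06 by edgeR).

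TCF7, a transcription factor of WNT signalling, had 1.39, 1.36 and 1.39 CPM in MC26 and 5.7, 5.25 and 6.45 CPM in M1B26 (log2 fold change 2.07, SE 0.14, adjusted p 2.78e-06 by edgeR), and CT had 1.65 ± 0.0443 CPM (SD, n = 3), so M1B26 stood above both others. IL33, an alarmin of the interleukin 1 family, had 0.224, 0.392 and 1.48 CPM in MC26 and 4.49, 3.08 and 2.29 CPM in M1B26 (log2 fold change 2.20, SE 0.50, adjusted p 0.00531 by edgeR), and CT had 0.109 ± 0.0227 CPM (SD, n = 3). IGFBP2, which binds insulin-like growth factors, had 0.398, 0.235 and 0.776 CPM in MC26 and 2.1, 2.41 and 4.21 CPM in M1B26 (log2 fold change 2.61, SE 0.37, adjusted p 3.75e-04 by edgeR), and CT had 8.93 ± 1.34 CPM (SD, n = 3), above both lines. SEMA6B, a semaphorin, had 0.845, 1.1 and 2.16 CPM in MC26 and 7.66, 7.12 and 8.03 CPM in M1B26 (log2 fold change 2.46, SE 0.26, adjusted p 5.74e-05 by edgeR). WNT7B, a WNT ligand, had 14.6, 4.37 and 1.22 CPM in MC26 and 1.8, 1.21 and 1.74 CPM in M1B26 (log2 fold change -2.08, SE 0.65, adjusted p 0.0255 by edgeR). Its lines overlapped, and it missed the threshold without MC26 replicate 1, M1B26 replicate 1, M1B26 replicate 2 or M1B26 replicate 3 (adjusted p 0.0604 to 0.170 by edgeR).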
